A study of Mus musculus with 24 samples.

Results

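miR-210 is a microRNA made from a single hairpin, which leaves 2 mature products, miR-210-3p (mmu-miR-210-3p in the tables) from its 3′ side and miR-210-5p (mmu-miR-210-5p) from its 5′ side. Both were taken by name from the 3 deposited tables of mature miRNAs, so the members are 2 of the 1950 mature miRNAs listed in any of the tables, and both were present at every day. The data come from small RNA sequencing of lungs of C57BL/6 mice, an inbred strain, that were 6 to 8 weeks old when assigned to groups. Irradiated mice received 15 Gy of X-rays to the whole thorax with the rest of the body spared, and control mice were not irradiated. Lungs were compared at day 14, day 90 and day 180, with 4 irradiated and 4 control libraries per day and 24 libraries in all. The labels name no genetic change in either group, and they leave it unsaid if each library is a separate animal, so p-values measure the spread between these libraries, which may be technical.

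miR-210 is the miRNA most regularly induced by low oxygen: the hypoxia-inducible factor (HIF) binds upstream of its gene and raises its transcription in endothelial, epithelial and many other cell types. miR-210-3p is the strand mainly loaded into the silencing complex, and its known targets include Iscu, an assembly factor for iron-sulfur clusters of the mitochondria, and Efna3, a ligand of the ephrin family that acts in vessel growth. Low oxygen has been reported in the irradiated lung of rats, where vessels are lost and scar tissue forms late after thoracic irradiation.

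The sequences of the hairpin and of both products are shown because the arms are compared throughout. They are from RefSeq for build GRCm38.p6, the build named in the submitters' processing notes. The gene, Mir210, lies at chr7:141221384-141221493 on the minus strand. In the GENCODE M21 annotation of the same build no other gene overlaps it, and the nearest one, the protein-coding gene Rassf7, ends 2726 bp away on the opposite strand. In the hairpin the capitals mark the 5p product (first) and the 3p product (second), and in the mature sequences they mark the seed, bases 2 to 8, which pairs with targets.
mir-210 hairpin: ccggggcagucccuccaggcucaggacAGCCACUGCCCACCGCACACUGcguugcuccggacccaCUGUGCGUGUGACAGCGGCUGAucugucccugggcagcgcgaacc
miR-210-3p: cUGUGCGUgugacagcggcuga
miR-210-5p: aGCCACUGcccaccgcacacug

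Each product is 22 bases long. In the minimum free energy fold of the 110-base hairpin (ViennaRNA, -48 kcal/mol), 17 of the 22 bases of miR-210-3p and 18 of those of miR-210-5p were paired. None of the other mature mouse miRNAs among the 1738 entries of the RefSeq table shared the seed of either arm. The closest other mature sequence was 7 edits away for each arm, so no near-identical relative was listed with which reads could be shared. Guanine and cytosine made up 63.6% of miR-210-3p and 68.2% of miR-210-5p, against a median of 52.2% over the table.

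Total counts over all miRNAs were 2832205 to 3695133 per library. Lung cell types were represented by their known miRNAs: miR-126a of endothelium summed to 35790 to 57790 CPM (counts relative to the library size after TMM scaling) and the miR-200 family of epithelium to 19720 to 42460 CPM over all libraries. No marker of the cell type lists, which also covered blood, muscle, liver, stratified epithelium and neural miRNAs, was at 0 in every library of a group. Irradiated library 1 of day 180 had the lowest total count of the 24. Bulk lung cannot tell fewer cells of a type from less RNA per cell.

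miR-210 was a low-abundance miRNA in every library. miR-210-3p ranked between 241 and 376 among the miRNAs of a library and miR-210-5p between 318 and 609, where 1023 to 1298 miRNAs had at least 1 count. The 3p arm had 38 to 313 counts, with a median of 71, and the 5p arm 5 to 116, with a median of 17. In 24 of 24 libraries the 3p arm outnumbered the 5p arm. Across all libraries the arms were counted 2023 and 517 times.

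**Figure D1:**
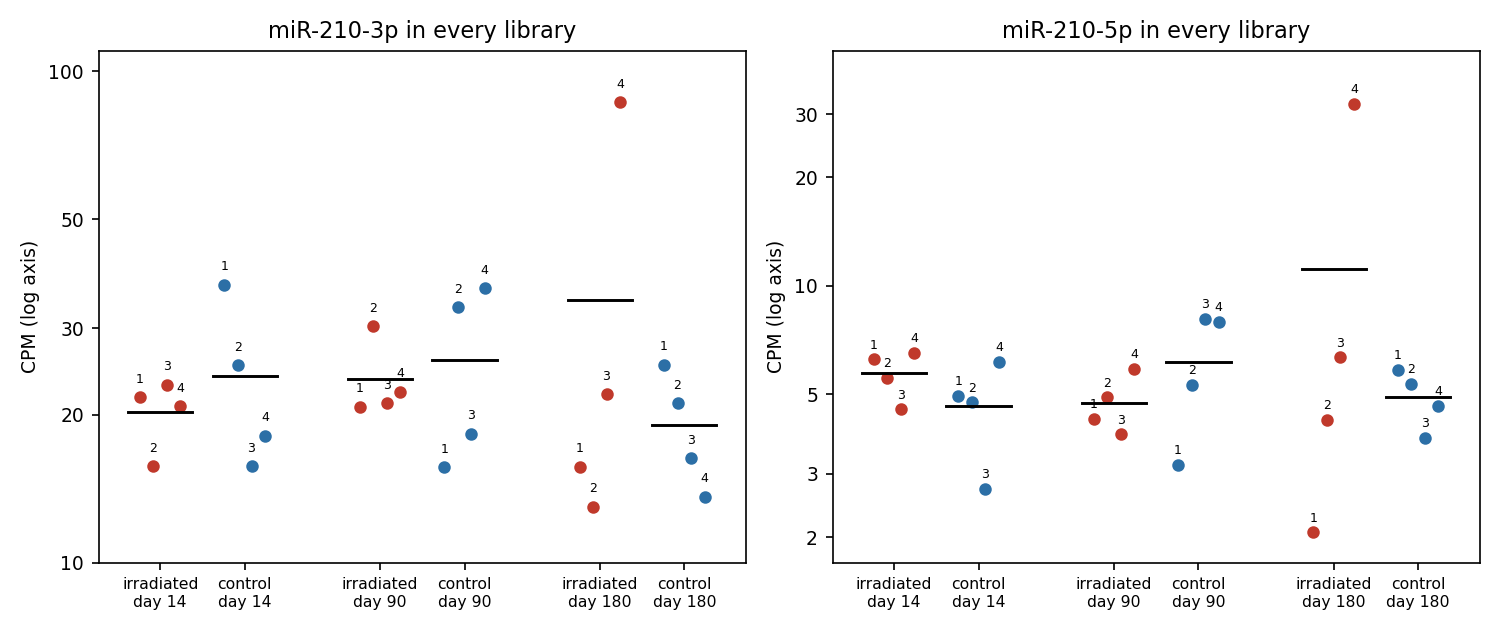
Level of miR-210-3p (left) and miR-210-5p (right) in CPM on a log axis, scaled within each day, with 1 point per library numbered by its replicate and a black bar at the mean of 4. Irradiated library 4 of day 180 lies at 86.5 and 32.1 CPM, above every other library, while the groups overlap at all 3 days.

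At day 14 neither arm passed the test between irradiated and control lungs. miR-210-3p had 66, 48, 71 and 67 counts in irradiated libraries 1 to 4, against 119, 85, 46 and 59 in control libraries 1 to 4. That made 20.3 ± 3.20 CPM in irradiated and 23.9 ± 9.44 CPM in controls (n = 4 each, ± is SD for CPM and SE for log2 values throughout). The groups overlapped: control libraries 1 and 2 were the highest of the 8, and control library 3 and irradiated library 2 the lowest. The log2 fold change was -0.24 ± 0.29 (SE, edgeR adjusted p = 0.919), with a 95% interval of the fold from 0.540 to 1.33. In the passenger arm, miR-210-5p, the counts were 19, 17, 14 and 21 in irradiated lungs and 16, 16, 8 and 20 in control lungs. The groups overlapped, with irradiated libraries 4 and 1 the highest and control library 3 the lowest, at 5.72 ± 0.885 against 4.64 ± 1.42 CPM. Its log2 fold change was 0.29 ± 0.28 (edgeR adjusted p = 0.919), with the fold between 0.790 and 1.90. Libraries of the same number deviated together at this day, though the labels name no pairs. In 4 of 4 pairs by number miR-210-5p was higher in the irradiated library (6.25 against 4.94, 5.56 against 4.74, 4.54 against 2.73 and 6.52 against 6.15 CPM). The exact permutation p within pairs was 0.125, the smallest that 4 pairs can give (adjusted p = 0.875), and edgeR with the replicate number as a block gave 0.32 (adjusted p = 0.853). In pairs 2 and 4 the miR-210-5p counts were nearly equal, at 17 against 16 and 21 against 20. The pairs of miR-210-3p went both ways: controls were higher in pairs 1 and 2, irradiated libraries in pairs 3 and 4.

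Neither of the 2 arms was called at day 14, where edgeR called 0.0% of 499 miRNAs tested, and the groups overlapped for both arms while 2.4% of miRNAs had groups that did not. edgeR's unadjusted p was under 0.05 for 27 miRNAs at this day, and DESeq2 called 1 and limma-voom 0. The sign of the 3p change rested on control library 1: without it the log2 fold change was 0.07.

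At day 90 miR-210-3p had 73, 105, 71 and 87 counts in irradiated libraries, against 54, 112, 61 and 141 in control libraries. Means were 23.6 ± 4.504 CPM after irradiation and 25.8 ± 10.3 CPM in controls. The controls fell into a high pair, libraries 2 and 4, and a low pair, libraries 1 and 3, and the irradiated libraries lay between the lowest and the highest of them. The log2 fold change was -0.13 ± 0.30 (edgeR adjusted p = 0.938), with the fold between 0.576 and 1.45. It turned to 0.06 without control library 4. miR-210-5p had 15, 17, 13 and 23 counts in irradiated and 11, 18, 27 and 31 in control libraries. Control libraries 3 and 4 had the highest levels and control library 1 the lowest, so the groups overlapped, at 4.73 ± 0.882 against 6.14 ± 2.35 CPM. This gave -0.37 ± 0.33 (edgeR adjusted p = 0.711), with the fold between 0.465 and 1.28. edgeR called 0.358% of 558 miRNAs at day 90, neither arm among them, and the groups did not overlap in 7.17%.

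At day 180 the means of both arms were higher in irradiated lungs, and 1 library carried the difference. miR-210-3p had 38, 46, 87 and 313 counts in irradiated libraries 1 to 4, against 95, 79, 56 and 44 in controls. miR-210-5p had 5, 15, 25 and 116 in irradiated and 22, 20, 13 and 15 in control libraries. In both arms irradiated library 4 stood above all controls, while irradiated library 3 lay close to the highest control and libraries 1 and 2 lay among or below the lower controls. The levels were 34.3 ± 35 against 19.1 ± 5.15 CPM for miR-210-3p and 11.2 ± 14.0 against 4.91 ± 0.894 CPM for miR-210-5p. Library 4 held 5.12 times the mean level of the other 3 irradiated libraries for miR-210-3p and 7.61 times for miR-210-5p.

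The log2 fold changes at day 180 were 0.85 ± 0.59 for miR-210-3p (edgeR adjusted p = 0.465) and 1.19 ± 0.74 for miR-210-5p (edgeR adjusted p = 0.419). Their 95% intervals ran from a fold of 0.719 to 4.505 for miR-210-3p and from 0.724 to 7.20 for miR-210-5p, so a rise of several fold and a small fall both lie inside them. Without irradiated library 4 the values were -0.16 and -0.19, with the other 3 irradiated libraries at 16.9 ± 4.62 CPM of miR-210-3p and 4.21 ± 2.13 CPM of miR-210-5p. edgeR called 0.0% of 552 miRNAs at day 180, with 101 at an unadjusted p under 0.05, and DESeq2 called 26 and limma-voom 0, neither arm among them. Groups did not overlap in 12.0% of miRNAs, and the arms were not among these either. The median log2 fold change over all miRNAs at this day was 0.13.

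**Figure D2:**
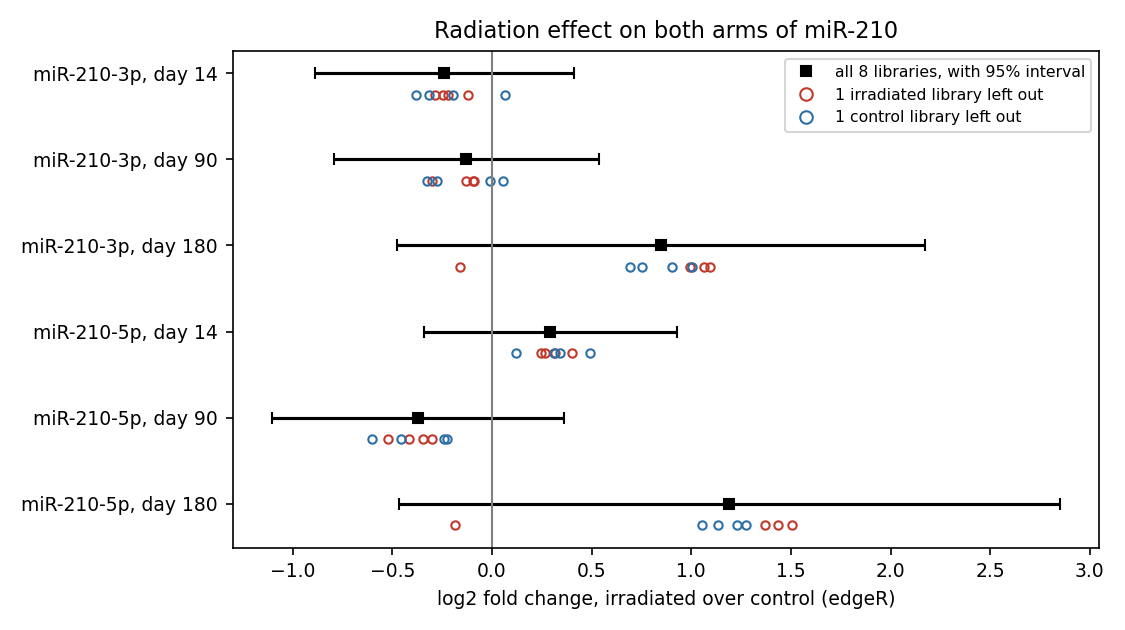
Log2 fold change of each arm, irradiated over control, at each day from edgeR, as a square with its 95% interval, and as open circles with 1 library left out (red irradiated, blue control). Every interval spans 0, and at day 180 the circle left of 0 in each arm is the value without irradiated library 4, -0.16 for miR-210-3p and -0.19 for miR-210-5p.

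Neither arm, nor both summed, passed exact two-sided permutation tests on log2(CPM + 1), over all splits of 4 against 4 libraries. Over the 9 tests the unadjusted p lay between 0.286 and 0.914, where the design could reach 0.0286. The adjusted p lay between 0.9 and 0.914. A single test at the lowest unadjusted p would not have passed after adjustment over the 9, so these tests could not detect a change of one arm at one day. The summed arms averaged 26.0 ± 3.19 CPM after irradiation and 28.6 ± 9.93 CPM in controls at day 14. They averaged 28.3 ± 4.81 against 31.9 ± 11.5 CPM at day 90 and 45.5 ± 48.96 against 24.0 ± 5.90 CPM at day 180.

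The spread of miR-210 between libraries differed in size between groups. At day 14 the coefficient of variation of the miR-210-3p level was 15.8% in irradiated and 39.4% in control lungs, and at day 90 it was 19.1% and 40.1%. At day 180 it was 102% in irradiated and 27.03% in control lungs. The median over all miRNAs tested was 22.45% against 22.5% at day 14, 21.3% against 24.1% at day 90 and 42.4% against 18.3% at day 180, so at day 180 the spread among irradiated libraries was wider for miRNAs in general. These are descriptions of 4 libraries each, and no test of the spread was made. Among miRNAs within 2-fold of its level, miR-210-3p was exceeded in its coefficient of variation by 100 of 113 in irradiated and 26 of 116 in control lungs at day 14. The counts were 67 of 109 against 19 of 115 at day 90 and 6 of 115 against 33 of 121 at day 180. miR-210-5p was exceeded by 1 of 126 in irradiated and 110 of 137 in control lungs at day 180. For miR-210-5p counting error alone is large: at the mean count of 15 in day 14 controls it comes to 25.8%, and the counts of irradiated libraries at day 14 varied no more than counting would give (variance 0.502 times the mean).

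The share of the 5p arm was compared because a change of both products alike leaves it the same. Pooled over all libraries it was 20.4% of miR-210 counts, and it ranged from 11.6% to 30.7% in single libraries. It was 22.4%, 26.1%, 16.5% and 23.9% in irradiated libraries 1 to 4 of day 14, against 11.9%, 15.8%, 14.8% and 25.3% in controls. At day 90 it was 17.0%, 13.9%, 15.5% and 20.9% in irradiated and 16.9%, 13.8%, 30.7% and 18.0% in control libraries. At day 180 it was 11.6%, 24.6%, 22.3% and 27.04% in irradiated and 18.8%, 20.2%, 18.8% and 25.4% in control libraries. The groups overlapped at each day.

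The difference of mean shares was 5.25 percentage points at day 14 (exact permutation p = 0.2, adjusted p = 0.6), with 22.2% in irradiated and 17.0% in control lungs. It was -3.03 points at day 90 (exact permutation p = 0.629, adjusted p = 0.914) and 0.58 points at day 180 (exact permutation p = 0.914, adjusted p = 0.914). Given the counts, the 95% Wilson interval of 21 of 24 libraries held the pooled share. The exceptions were control library 1 of day 14, with an interval from 7.43% to 18.4%, control library 3 of day 90, from 22.02% to 41.0%, and irradiated library 4 of day 180, from 23.05% to 31.4%. In that last library, where both arms were highest, the 5p share was 27.04%, below that of control library 3 of day 90. Intervals cover counting error only, since reads after PCR are not independent molecules.

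**Figure D3:**
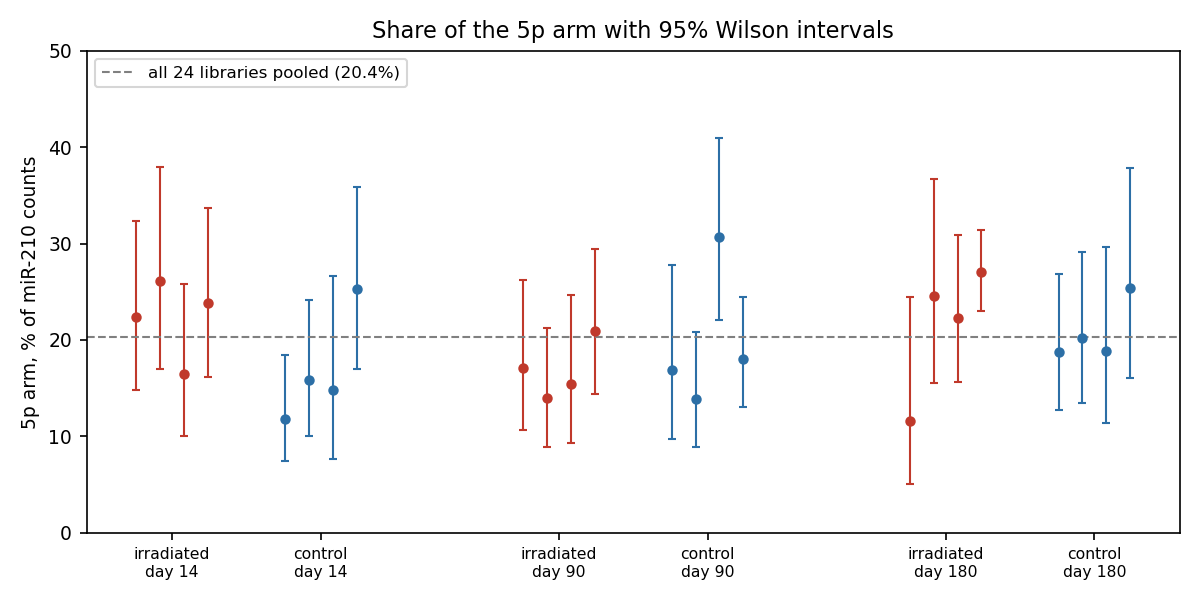
Share of the 5p arm among miR-210 counts in each library, in percent, with 95% Wilson intervals, irradiated (red) and control (blue) at each day; the dashed line is the share over all 24 libraries, 20.4%. The shares of irradiated and control libraries overlap at each day, and irradiated library 4 of day 180 has the narrowest interval because it has the most counts.

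The radiation effects of different days were set against each other in 1 edgeR fit of all 24 libraries on the 624 miRNAs tested there. Between day 180 and day 90 the effect differed by 0.94 ± 0.63 on the log2 scale for miR-210-3p (edgeR adjusted p = 0.491) and by 1.52 ± 0.75 for miR-210-5p (unadjusted p = 0.0545, edgeR adjusted p = 0.333). Between day 180 and day 14 the differences were 1.04 ± 0.63 (edgeR adjusted p = 0.535) and 0.85 ± 0.75 (edgeR adjusted p = 0.726). Between day 90 and day 14 they were 0.10 ± 0.63 and -0.66 ± 0.76 (edgeR adjusted p = 0.996 for both). edgeR called 0.0% of the 624 miRNAs in each of these 3 comparisons, as did limma-voom, with 91, 71 and 28 at an unadjusted edgeR p under 0.05 in the order given. Without irradiated library 4 of day 180 the difference between day 180 and day 90 was 0.06 for miR-210-3p and 0.27 for miR-210-5p, and between day 180 and day 14 it was 0.08 and -0.46.

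Control lungs alone were compared between days on 1 scaling of their 12 libraries. Each day has a table of its own, so time and table cannot be told apart. Neither arm passed in any of the 3 comparisons, in which edgeR called 3.55% (day 90 against day 14), 8.69% (day 180 against day 14) and 0.0% (day 180 against day 90) of 564 miRNAs. In the last of these 99 miRNAs had an unadjusted p under 0.05, and limma-voom called 7. The lowest of the 6 values was that of miR-210-3p at day 180 against day 14, -0.53 ± 0.35 on the log2 scale (edgeR adjusted p = 0.372). That of miR-210-5p was -0.13 ± 0.34 (edgeR adjusted p = 0.860).

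On 1 scaling of all 24 libraries, the 6 groups were ordered by their mean level. For miR-210-3p irradiated lungs of day 180 came highest at 31.8 ± 31.6 CPM, followed by controls of day 14 at 26.6 ± 10.1 and controls of day 90 at 24.5 ± 10.4. Irradiated lungs of day 14 and day 90 came next at 22.6 ± 3.10 and 22.3 ± 4.45 CPM, and controls of day 180 were lowest at 18.2 ± 5.05. For miR-210-5p irradiated lungs of day 180 were again highest at 10.3 ± 12.7 CPM, and the other 5 groups lay between 4.47 and 6.37 CPM. All neighbours in either order overlapped. The lowest exact permutation p of the 5 neighbour pairs was 0.257 for miR-210-3p (adjusted p = 0.971) and 0.629 for miR-210-5p (adjusted p = 0.929). Neighbours were adjacent because the groups were sorted by mean level. A single pair at the lowest p the design could reach would not have passed after adjustment over the 5. These tests therefore could not show that neighbours differ or are alike. By median, irradiated lungs of day 180 stood at 17.9 CPM of miR-210-3p, next to the controls of that day at 17.8.

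The other miRNAs of the oxygen response were read from 2 lists. The first holds 20 miRNAs other than miR-210 that were reported to be raised by hypoxia, mostly in cultured human cells. Of these, 19 were tested at each day, all but miR-687. None was called by edgeR, DESeq2 or limma-voom at any day, where edgeR called 0.0%, 0.358% and 0.0% of all miRNAs. DESeq2 called 1 of 1649, 18 of 1044 and 26 of 829 of all miRNAs, and limma-voom 0 of 499, 3 of 558 and 0 of 552. With shares this low, 19 members without a call do not set the list apart from all miRNAs. edgeR's unadjusted p was under 0.05 for 0, 0 and 4 of the 19 at day 14, 90 and 180. Among all miRNAs tested it was so for 27 of 499, 71 of 558 and 101 of 552. Above 0 were 10 of 19 at day 14, 5 of 19 at day 90 and 6 of 19 at day 180, where 51.9%, 48.0% and 58.9% of all miRNAs were above 0. Median log2 fold changes of the list were 0.0040, -0.08 and -0.18 at the 3 days, and those of all miRNAs 0.01, -0.02 and 0.13.

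miR-107-3p, which with its near-identical relative miR-103-3p acts on the RNase Dicer, had the largest log2 change of the list at day 14 (-0.93) and day 90 (-0.76). Its level was 8.87 ± 2.58 CPM after irradiation and 16.9 ± 23.1 CPM in controls at day 14, and 5.80 ± 2.17 against 9.80 ± 6.33 CPM at day 90. How reads were divided between these relatives is not given here, so both values are uncertain. miR-103-3p had -0.44 and -0.41 and miR-181c-5p -0.31 and -0.30 at these days. None of these values passed the test.

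At day 180 the list's largest values were those of miR-382-5p at 1.30, miR-155-5p at 1.19 and miR-26b-5p at -0.59. miR-155-5p, a miRNA of activated leukocytes, averaged 1039 ± 676 CPM after irradiation and 455 ± 94.2 CPM in controls (edgeR adjusted p = 0.259). All 4 irradiated libraries were above all 4 controls, with library 4 the highest. miR-382-5p, of the imprinted Dlk1-Dio3 cluster, stood at 57.5 ± 36.5 against 23.3 ± 9.41 CPM (edgeR adjusted p = 0.259). miR-26b-5p stood at 9180 ± 1653 against 13865 ± 807 CPM (edgeR adjusted p = 0.163). Groups did not overlap for 5 of 19 members at this day (26.3%, against 12.0% of all miRNAs): miR-155-5p and miR-21a-5p above the controls, and miR-26b-5p, miR-23a-3p and miR-103-3p below them.

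The second list holds 8 miRNAs reported to act on Hif1a or on proteins that control it. All 8 were tested at each day and none was called by edgeR, DESeq2 or limma-voom, with 0, 1 and 1 at an unadjusted edgeR p under 0.05. Of all miRNAs tested, edgeR called 0.0%, 0.358% and 0.0%, and 27 of 499, 71 of 558 and 101 of 552 had such a p. DESeq2 called 1 of 1649, 18 of 1044 and 26 of 829 of all miRNAs, and limma-voom 0 of 499, 3 of 558 and 0 of 552. With shares this low, 8 members without a call do not set the list apart from all miRNAs. Above 0 were 5, 2 and 4 of 8 at day 14, 90 and 180, where 51.9%, 48.0% and 58.9% of all miRNAs were above 0. Medians were 0.02, -0.08 and 0.03, and those of all miRNAs 0.01, -0.02 and 0.13. miR-135b-5p, reported in human cells to act on the HIF inhibitor Hif1an, had the largest value at day 14, 0.90, from 116 ± 86.1 against 62.1 ± 27.7 CPM, and at day 180, 0.88, from 511 ± 410 against 278 ± 224 CPM. At day 90 miR-20b-5p had the largest, -0.77, at 25.7 ± 8.42 against 43.9 ± 9.14 CPM (edgeR adjusted p = 0.269). The next ones were miR-20b-5p (0.23) and miR-20a-5p (-0.17) at day 14, miR-17-5p (-0.42) and miR-135b-5p (0.38) at day 90, and miR-31-5p (-0.52) and miR-17-5p (-0.52) at day 180.

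**Figure D4:**
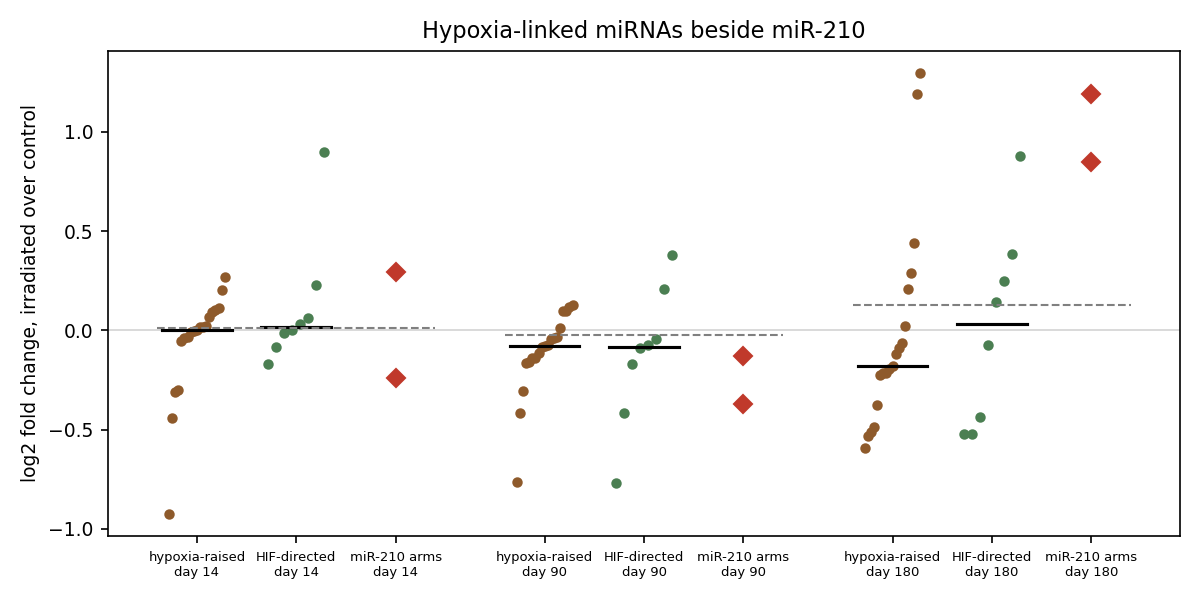
Log2 fold change, irradiated over control, of each tested member of the hypoxia-raised list (brown) and the HIF-directed list (green) and of both arms of miR-210 (red diamonds) at each day. Black bars are list medians and dashed lines the median of all miRNAs tested; at day 180 the arms of miR-210 lie at 0.85 and 1.19 while the median of the hypoxia-raised list is -0.18.

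The miRNAs whose pattern was most like that of miR-210-3p were found by the Pearson correlation of log2 CPM, after subtracting each group's mean, over the 24 libraries and 479 other miRNAs tested at all 3 days. In order these were miR-511-3p (r = 0.831, Spearman 0.661), miR-155-5p (0.795, Spearman 0.667), miR-210-5p itself (0.777, Spearman 0.585), miR-199b-3p (0.769, Spearman 0.76) and miR-376a-3p (0.757, Spearman 0.663). They were picked for their likeness, so no p is given. The choice of these 5 rested on irradiated library 4 of day 180: over the other 23 libraries r was 0.55, 0.599, 0.427, 0.417 and 0.57, at positions 20, 10, 50, 54 and 18 of 479. None of the 5 stayed among the 5 most alike, which were then miR-377-3p (0.756), miR-365-3p (0.737), miR-32-5p (0.736), miR-107-3p (0.679) and miR-142a-5p (0.645). The 2 least alike were miR-27b-5p (-0.823, Spearman -0.881) and miR-7213-5p (-0.794, Spearman -0.699), at -0.657 and -0.567 over the 23. The 2 libraries whose deviation of miR-210-3p from its group mean lay farthest from the median deviation were irradiated libraries 2 and 4 of day 180. With both left out, r was 0.526 for miR-511-3p, 0.57 for miR-155-5p, 0.461 for miR-210-5p and -0.767 for miR-27b-5p.

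miR-511-3p comes from an intron of Mrc1, the mannose receptor gene of macrophages. At day 180 it stood at 31.4, 32.8, 54.7 and 193 CPM in irradiated libraries 1 to 4, against 29.8, 44.1, 34.1 and 34.7 CPM in controls. Its order over the irradiated libraries resembled that of miR-155-5p, with 641, 535, 965 and 2015 CPM, against 493, 493, 518 and 315 CPM in controls. miR-376a-3p, another miRNA of the imprinted cluster, had 90.4, 80.0, 149 and 314 CPM in irradiated and 62.5, 80.9, 71.1 and 76.1 CPM in control libraries. In each of these, as in miR-210, library 4 was the highest of the 8. The choice by likeness rested on this library, so its high place is no separate result. miR-199b-3p is an uncertain case: its counts equal those of miR-199a-3p in 8 of 8 libraries at day 14 and at day 90 but in 0 of 8 at day 180, where it lay at 2.48, 3.11, 7.34 and 1748 CPM in irradiated and at 1763, 2107, 1453 and 24.8 CPM in control libraries.

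**Figure D5:**
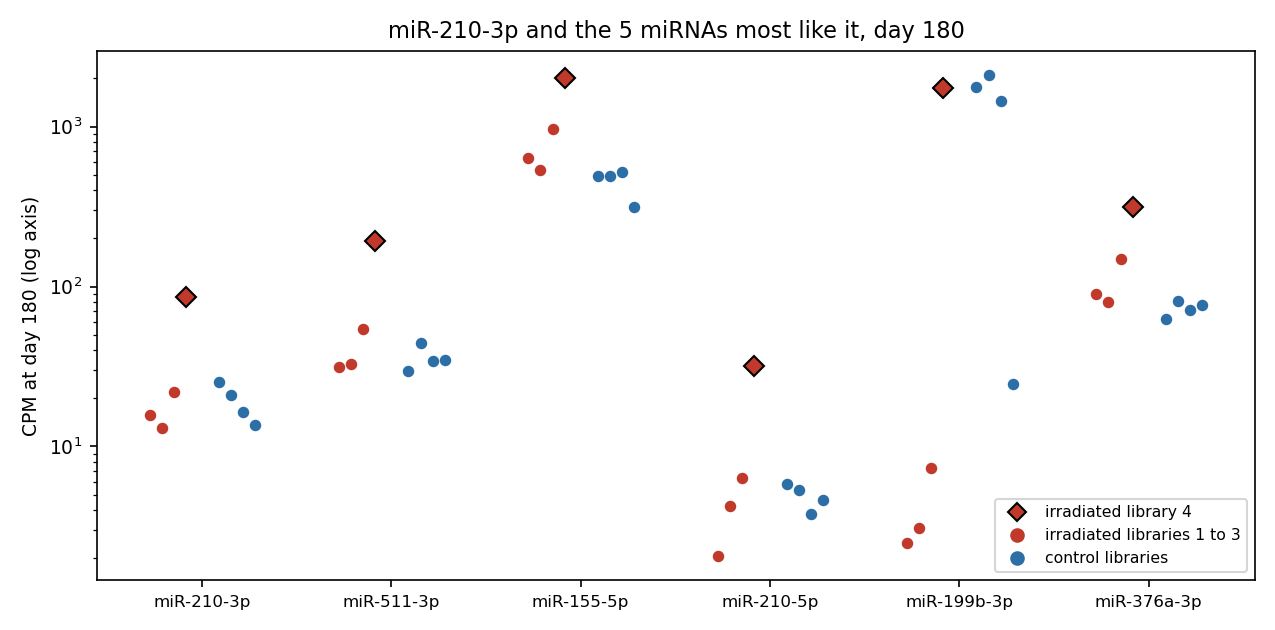
Level at day 180, in CPM on a log axis, of miR-210-3p and the 5 miRNAs most like it over 24 libraries, with irradiated library 4 as a diamond, irradiated libraries 1 to 3 as red points and controls as blue points. Library 4 lies above the other 7 libraries in all but miR-199b-3p, for which 2 controls are higher. The 5 were chosen by a likeness that rested on library 4.

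Irradiated library 4 of day 180 was compared with the other 3 irradiated libraries of that day over all 552 miRNAs. By the log2 ratio, miR-210-5p came at position 3 with 2.75 and miR-210-3p at position 6 with 2.32, while the median miRNA was at 0.01. Its total count, 3363076, lay within the range of the day. Among the cell type lists, its miR-200 family epithelial miRNAs summed to 19720 CPM, against 27880 to 29530 CPM in the control libraries. Irradiated libraries 2 and 3 also lay below all controls, at 25380 and 23040 CPM, and irradiated library 1 lay above them at 42460 CPM. Its ciliated miRNAs were at 17460 CPM, against 8031 to 13070 CPM in the other irradiated and 9876 to 16040 CPM in the control libraries. Myeloid miRNAs, both arms of miR-223, were at 1845 CPM, against 790.8 to 1618 CPM in the other irradiated and 1113 to 1672 CPM in the control libraries. Liver miR-122-5p was at 457.9 CPM, below 744.2 to 909 CPM in the other irradiated and 561.8 to 860 CPM in the control libraries. Its erythroid sum, 21310 CPM, was below the controls (26400 to 32700 CPM) and within the range of the other irradiated libraries (19430 to 37330 CPM). Its lymphoid (16310 CPM), smooth muscle (29930 CPM) and striated muscle (432.2 CPM) sums were the lowest of the 8 libraries. The next lowest lymphoid and smooth muscle sums were close, at 16720 CPM in control library 2 and 29940 CPM in irradiated library 3. For striated muscle the next was 631.5 CPM in control library 3. Its endothelial sum, 43140 CPM, and leukocyte sum, 3882 CPM, lay within the range of the controls, 41620 to 46420 and 2601 to 4006 CPM. Its neural sum was 52.78 CPM, against 97.41 to 149.8 CPM in the other irradiated and 29.43 to 48.87 CPM in the control libraries, and its stratified epithelium sum was 615.7 CPM, against 581.7 to 790.4 and 817.8 to 890.5 CPM. The part of these cell types in the level of miR-210 was not tested.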

How the data were processed

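Small RNA libraries were cut from a gel, ligated to adaptors and amplified by PCR, per the labels' protocols. The authors deposited, per day, whole-number counts of each mature miRNA that were not normalised, and values taken as RPM, which equal those counts over a larger total of 11984009 to 16081430 reads whose makeup is not stated. Bowtie2 and GRCm38.p6 are named, with no role, in the submitters' processing notes; the use of molecular identifiers is not given. Columns were matched to libraries by name.

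Each day's whole table was fitted alone with edgeR 4.0.16 (R 4.3.3): filterByExpr, TMM, quasi-likelihood F-test with the legacy fit, Benjamini-Hochberg over all miRNAs, threshold 0.05. The SE is the log2 fold change over the root of F, and intervals follow from it. Effect differences and controls between days used the 1477 miRNAs shared by the tables. The fit was also run on counts simulated from its own means and dispersions, with no outlying library added. That run cannot show whether the model suits these data. DESeq2 1.42.0, limma 3.58.1, other scalings and filters, and leaving out each library were alternatives. Hairpins were folded with ViennaRNA 2.7.2.

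The members and lists were chosen with earlier results of these data known. Named miRNAs were both arms, list members past the test or with the 3 largest changes in a list, and the 5 most and 2 least like miR-210-3p; those without overlap at day 180 were named after seeing values. Replicate numbers pair libraries at day 14 (correlations of paired deviations 0.172 to 0.465), but not at day 90 (-0.224 to 0.355) or day 180 (-0.356 to -0.093).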

Additional observations from a re-analysis of the deposited data

Results flagged for a closer look

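Irradiated library 4 of day 180 stood far from the other 3 libraries of its group, at 86.5 CPM of miR-210-3p, 32.1 CPM of miR-210-5p and 118.5 CPM of both arms summed. The next highest irradiated library of that day had 22.01, 6.33 and 28.3 CPM. Irradiated library 2 of day 90 stood apart with 30.3 CPM of miR-210-3p, against 20.8 to 22.3 CPM in the other 3. Irradiated library 2 of day 14 stood apart on the low side with 21.3 CPM of both arms summed, against 27.3 to 27.96 CPM. In all, 24 groups of 4 values were checked, and chance sets about 1 in 20 such groups apart; the summed arms are not separate from the single ones.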

How the results depend on the processing

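Neither arm passed the threshold in any comparison under any alternative run (504 values of 30 results, lowest adjusted p = 0.166). Of these, 472 kept their direction, and the 32 that turned were values with 1 library left out. The 504 include permutation tests within pairs, which could not pass because their smallest p is 0.125. They also include other permutation tests, of which a single one could not pass alone after adjustment. Ranges with 1 library left out, on the log2 scale, were for miR-210-3p -0.38 to 0.068 (day 14), -0.33 to 0.0568 (day 90) and -0.16 to 1.09 (day 180), and for miR-210-5p 0.12 to 0.49, -0.60 to -0.23 and -0.19 to 1.51. For effect differences they were -0.17 to 0.33 (day 90 minus 14), 0.08 to 1.43 (180 minus 14) and 0.06 to 1.31 (180 minus 90) for miR-210-3p, and -0.93 to -0.49, -0.46 to 1.23 and 0.27 to 1.90 for miR-210-5p. In controls they were -0.36 to 0.16, -0.70 to -0.25 and -0.59 to -0.17 for miR-210-3p, and -0.0236 to 0.39, -0.29 to 0.0724 and -0.50 to -0.10 for miR-210-5p. Permutation differences ranged from -0.34 to 0.05606, -0.25 to 0.13 and -0.16 to 0.72 for miR-210-3p at day 14, 90 and 180, 0.09 to 0.41, -0.50 to -0.12 and -0.26 to 0.89 for miR-210-5p, and -0.26 to 0.12, -0.33 to 0.06675 and -0.18 to 0.72 for both summed. Differences of the 5p share ranged from 3.55 to 8.04, -5.04 to 0.58 and -1.30 to 3.83 points. With limma-voom the day 180 values were 0.44 and 0.51. The replicate block changed no call of an arm: at day 14, where libraries of the same number deviated together, it gave -0.18 and 0.32, and at day 180, where they did not, 0.37 and 0.49. In the order of the 6 groups by miR-210-5p, 3 of 5 neighbour pairs kept their order by deposited RPM. With a mean of at least 10 CPM, miR-210-5p was not tested. Likeness and the day 180 level without irradiated library 4 were added after seeing the data; over 23 libraries r was 0.55 (miR-511-3p), 0.599 (miR-155-5p), 0.427 (miR-210-5p), 0.417 (miR-199b-3p) and 0.57 (miR-376a-3p).

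Counts of all miRNAs called moved more; the cause was not tested. At day 14, 7 with no filter, 1 with DESeq2 and 1 with all 24 libraries in one fit, against 0. At day 90, 5 with upper-quartile scaling, 18 with no filter, 0 at 10 CPM, 18 with DESeq2, 5 with the newer edgeR fit, 0 in one fit of 24 and 0 with the replicate block, against 2. At day 180, 18 with no filter, 26 with DESeq2, 3 with the newer edgeR fit and 32 in one fit of 24, against 0. For controls of day 90 against 14, 13 with no filter and 7 with the replicate block, against 20; for day 180 against 14, 25 with the block, against 49; for day 180 against 90, 7 with limma-voom, against 0. With 1 library left out the counts were 0 to 1, 0 to 7 and 0 to 5 at day 14, 90 and 180, 0 to 18 (day 180 minus 14) and 0 to 10 (180 minus 90) for effect differences, and 0 to 25, 15 to 49 and 0 to 4 for controls. With 5 to 31 counts of miR-210-5p in all but 1 library, depth limits what could be detected for that arm.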
